A study of Caenorhabditis elegans with 12 samples.

Results

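Adenosines with a G directly before them (5′ side, on the strand of the site) are known as poor substrates of ADAR enzymes, and their A-to-G sites in Caenorhabditis elegans are described here. The sites were taken from the deposited C. elegans table of A-to-G positions, which gives the genome triplet centred on each position, a whole number called the score here, and a strand. On chromosomes II, III, IV, V and X, minus-strand triplets were reverse-complemented so that the middle base read A, and the sites whose first base was G were kept. This gave 5848 of 60630 sites on these chromosomes; the whole table holds 82895 sites. For comparison, 29721 sites were preceded by A, 15693 by T and 9368 by C.

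The study sequenced total RNA of the Bristol N2 wild-type strain after depletion of ribosomal RNA. Of its 12 libraries, 6 were treated with RNase R, an exonuclease that removes linear RNA and leaves circles, and 6 were mock libraries that stood at room temperature instead. Each treatment has 1 library at each of 6 stages, with stage 1 labelled embryo, stages 2 to 5 labelled L1-L4 and stage 6 labelled young adult. The table names no library, so no site could be assigned to a treatment or stage, there are no replicates, and no value below has an SD over samples. The deposited score has no stated meaning, and read depth and editing level are unknown, so a missing position is no evidence of an unedited adenosine.

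ADAR enzymes deaminate adenosine to inosine in double-stranded RNA, and inosine is read as guanosine by the sequencer. The base 5′ of the adenosine is known to matter most for its choice, with U and A favoured and G disfavoured, while G on the 3′ side is favoured. In C. elegans, ADR-2 carries out the deamination, and ADR-1 lacks the activity but binds RNA and alters which sites are edited. The enzymes edit long duplexes, such as those of inverted repeats, at many adenosines, so sites lie in groups. Same-strand sites at most 100 bp apart are called a run here, and sites of either strand at most 1000 bp apart a region. The 60630 sites formed 3510 runs in 2073 regions, and 2296 runs in 1469 regions held a site preceded by G.

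The triplets of neighbouring sites overlap or abut, so short stretches of the genome sequence can be read back from the table itself. Where a base was given by more than 1 triplet, 40354 of 40354 comparisons matched. The longest stretches with at least 2 sites preceded by G show how these sites sit among other adenosines and how unequal their scores are. Each is printed 5′ to 3′ on the strand of the sites, and capitals mark the G and the listed adenosine of each site preceded by G. Coordinates are those of the deposited table, whose genome build is not given in the sources used here.
chrV:3749740-3749775, minus strand: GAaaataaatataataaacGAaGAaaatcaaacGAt
chrIV:4474829-4474857, minus strand: taaagGAtGAtaatcaaataaaaattaag
chrIV:2195005-2195027, plus strand: GAtGAatGAataaaaattagGAt
chrIII:13780293-13780314, plus strand: GAccaGAaagcatcaaaGAGAg
chrIII:13142552-13142572, minus strand: tatcaaaatGAaaGAtcatag

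In the chromosome V stretch, the sites preceded by G had scores of 1, 25, 1 and 38 from 5′ to 3′, while the 18 other listed adenosines had a median of 13 and a highest score of 42. The second stretch gave 1 and 4 for its sites preceded by G, against a median of 24.5 over its 14 other sites. The third had 9, 14, 1 and 1, against a median of 2 over 6 other sites. In the first and the third of these, some sites preceded by G thus scored at or above the median of their neighbours while others were at the lowest score. The stretch on chromosome III from 13780293 had scores of 1, 1, 6 and 1 at its sites preceded by G, against a median of 6 over 7 others, and the last stretch had 5 and 4, against a median of 11 over 8 others. The stretches were picked for holding such sites, so their content is an illustration and not a count. No gene, exon, intron or UTR could be given for any of them. Of 106 bases that the WBcel235 annotation fixes (start codons and intron ends) and that lie in listed triplets, 28 matched, so coordinates of the table and of that annotation were not used together.

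Sites preceded by G were a small part of the list on all of the chromosomes studied. They made up 9.65% of sites (exact 95% interval 9.41 to 9.88%, which like all such intervals here covers counting error of sites and treats them as independent). The share was 10.2% on X, 9.97% on II, 9.71% on III, 9.38% on IV and 9.38% on V, and the intervals of these shares overlapped. By strand it was 9.79% for plus and 9.49% for minus. On autosomes II to V, 4757 such sites lay on arms (the first and last 33.3% of the listed length) and 761 in centres, which was 9.50% and 10.4% of the sites there. Regions with sites on both strands had a share of 10.2%, and regions with sites on a single strand had 9.38%. Since the rule chose the sites by this base, these shares are a description and were not tested. The base composition of the regions is unknown without the genome.

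A background of adenosines could nevertheless be had from the table. Where a listed site lies 2 bases before an adenosine and another listed site 1 base after it, the triplets of these sites give the adenosine and the base before it whether or not the adenosine is itself listed. All adenosines seen in this way are followed by A. Those preceded by G were listed least often: 166 of 601 were sites, which is 27.6% (exact 95% interval 24.1 to 31.4%). The share was 46.9% of 367 adenosines preceded by C (41.7 to 52.1%), 68.8% of 564 preceded by T (64.8 to 72.6%) and 62.0% of 3031 preceded by A (60.2 to 63.7%). The odds of being listed were 0.253 times those of adenosines preceded by C or T, with a 95% interval of 0.203 to 0.315 (binomial model with errors clustered on regions, adjusted p = 7.51e-34). Against adenosines preceded by C alone, a comparison chosen after seeing the data, the odds were 0.433 times as high. The bracketing sites had to be listed, so these adenosines lie in densely listed places.

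**Figure D1:**
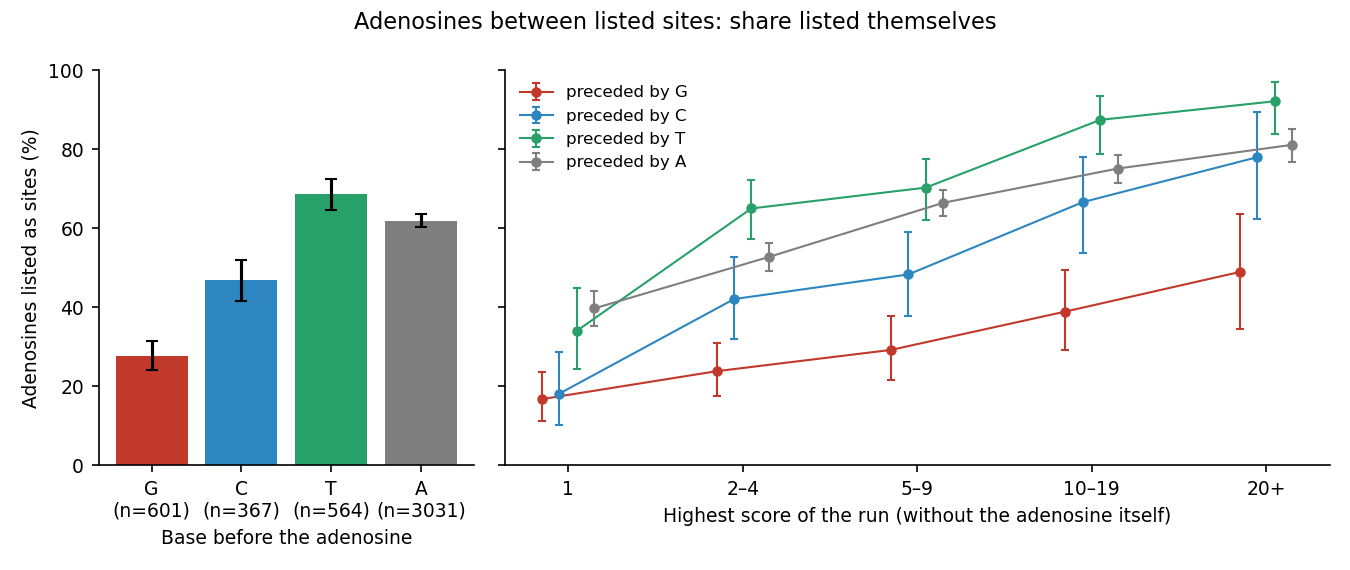
Share of adenosines between listed sites that were themselves listed, by the base before them (left, with the number of adenosines) and by the highest score of the run (right); bars and points are percentages and error bars exact 95% intervals. Adenosines preceded by G stand lowest over all runs, at 27.6%, and at 49% against 92.2% for T in the runs with the highest scores.

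On each chromosome the listed share was lowest for G, followed by C, while the order of T and A was not the same on all of them. Adenosines preceded by G were listed in 26.3% of cases on II, 33.1% on III, 25.3% on IV, 27.7% on V and 18.9% on X. Adenosines preceded by C were listed in 44.4%, 45.9%, 50.9%, 45.9% and 42.1% of cases on these chromosomes in the same order, and those preceded by T in 67.8%, 70.1%, 69.7%, 70.8% and 52.0%. Those preceded by A were listed in 58.8%, 66.0%, 61.2%, 60.9% and 59.1% of cases, which was below T on II to V and above T on X. On X the intervals of G and C overlapped, with 37 and 19 adenosines.

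The listed share of adenosines preceded by G was higher in runs with higher scores, but it stayed below that of the other bases; the change within G alone was not tested. Where no other site of the run scored above 1, 16.8% of 155 adenosines preceded by G were listed, against 18.2% of 77 preceded by C and 34.1% of 88 preceded by T, and the exact intervals of G (11.3 to 23.6%) and C (10.3 to 28.6%) overlapped. In runs with a highest score of 20 or more, the share was 49% of 49 (34.4 to 63.7%) for G, 78.0% of 41 for C and 92.2% of 77 for T. Sorted by the flanking sites themselves, 21.4% of adenosines preceded by G were listed where the lower flanking score was 1, and 52.5% of 40 were listed where it was at least 5. Between the same classes the share also rose for C (39.6% to 71.4%), T (60.2% to 94.9%) and A (55.3% to 91.4%). In the shares above, G lay further below C and T in runs of 20 or more than where no other site scored above 1. The number of sites and the highest score were tested only together in the same model, and neither was tested alone. In that model, the gap between G and the bases C or T did not change detectably along either scale with the other held fixed. Its odds ratio changed by a factor of 0.848 per doubling of the highest score (95% interval 0.673 to 1.07, adjusted p = 0.184) and by 0.928 per doubling of the number of sites (0.737 to 1.17, adjusted p = 0.561, binomial model with errors clustered on regions). Without regions that hold sites on both strands, the first of these passed the test, at 0.669 (adjusted p = 0.0113, same binomial model).

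Adenosines preceded by G that are known from both listed neighbours but are not listed themselves show such gaps in sequence. The 5 printed are those whose runs had the highest top scores (114, 86, 40, 40 and 36) among the runs that hold such an adenosine, so high-scoring runs without one are not represented. Capitals mark the G and the adenosine that is not listed, and the remaining letters come from triplets of listed sites.
chrIII:12224159-12224168, minus strand: caGAaaatac
chrV:20251535-20251542, minus strand: gaaGAaat
chrII:13486668-13486683, minus strand: aaacgaaaGAaaacag
chrII:13486698-13486714, minus strand: tattaaGAaaaaacgaa
chrIII:12502609-12502617, plus strand: gaaaaGAac

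In the first, the listed sites 5′ and 3′ of the adenosine had scores of 2 and 1, in a run of 139 sites that reached 114. In the second, the adjoining sites had 10 and 4. The third lay between scores of 21 and 8, in a run that reached 40, and the same stretch held a listed site preceded by G with a score of 11. The fourth had 9 and 5 beside it and a listed site preceded by G with a score of 15 further 3′. In the fifth, with 5 and 2 beside the gap, another site preceded by G scored 15. In 4 of these 5 stretches an adenosine preceded by G was thus listed within a few bases of an adenosine preceded by G that was not.

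Where they were listed, sites preceded by G had low scores. Their score had a median of 1, a mean of 1.92 and a highest value of 71, against a median of 1, a mean of 2.25 and a highest value of 143 for the other sites. A score of 1 was held by 68.9% of sites preceded by G, against 65.9% for C, 61.7% for T and 64.3% for A. Scores of 10 or more were reached by 98 sites preceded by G, or 1.68% (exact 95% interval 1.36 to 2.04%), against 2.37% for C, 3.35% for T and 2.53% for A. From the side of the score, sites preceded by G were 10.3% of sites with a score of 1, 8.78% of those with 2 to 4, 7.68% of those with 5 to 9 and 6.14% of those with 10 or more.

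The same held inside runs, which share a locus. In runs with a highest score of at least 2, the log2 score of sites preceded by G differed from that of their run's remaining sites by -0.26 (SE 0.020, 4225 sites, n = 771 regions, adjusted p = 2.23e-35, linear model with an effect of the run and errors clustered on regions). Among these 771 regions, the mean of sites preceded by G was lower in 526 and higher in 236. The difference was -0.20 on II (SE 0.036), -0.32 on III (SE 0.037), -0.23 on IV (SE 0.037), -0.27 on V (SE 0.053) and -0.22 on X (SE 0.15), so all 5 chromosomes had the same direction, and on X the 95% interval included 0. Adenosines that were not listed have no score and do not enter these differences.

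**Figure D2:**
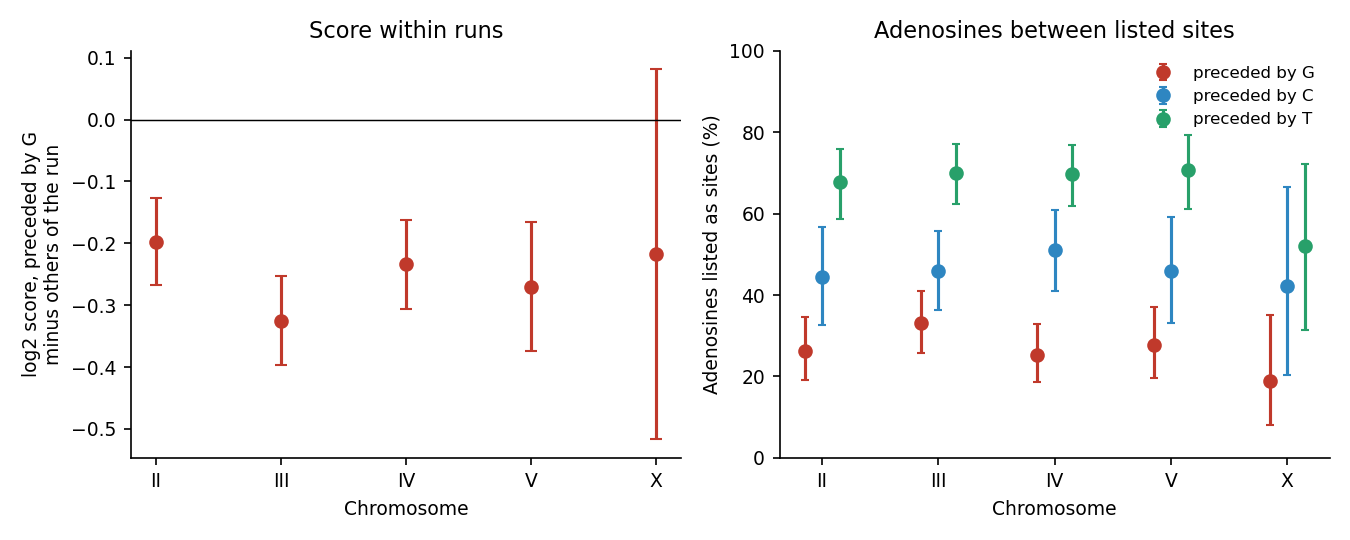
Left, difference of log2 score between sites preceded by G and the other sites of their run, per chromosome, with 95% intervals; right, share of adenosines between listed sites that were themselves listed, per chromosome and base before, with exact 95% intervals. Scores are below 0 on the left for all 5 chromosomes, with the interval of X reaching past 0, and G is the lowest of the 3 bases on each chromosome on the right.

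The bracketed adenosines allow a closer look, since the score can be set against that of the listed sites 2 bases before and 1 base after. Of 166 listed adenosines preceded by G, 97 scored below the mean of these 2 sites, 55 equalled it and 14 exceeded it, with a mean score of 1.94 against 4.50 for the sites beside them. Of 172 preceded by C, 49 exceeded the sites beside them, and of 388 preceded by T, 160 did. In shares, 8.43% of the G group exceeded their neighbours, against 28.5% for C and 41.2% for T. In 306 runs with a highest score of at least 5 and a single site at that score, the top site was preceded by G in 16 cases, or 5.23% (exact 95% interval 3.02 to 8.35%), while 10.7% of all sites in these runs were preceded by G.

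The base after the site was read next. Of the sites preceded by G, 3131 were followed by A (53.5%), 1178 by G (20.1%), 1046 by T (17.9%) and 493 by C (8.43%). Among the other sites, these shares were 52.3%, 17.2%, 23.0% and 7.54%. T followed less often, with an odds ratio of 0.729 (95% interval 0.680 to 0.783, adjusted p = 6.33e-18, binomial model with errors clustered on regions), and its share was lower on all 5 chromosomes. G followed more often, with an odds ratio of 1.22 (1.13 to 1.31, adjusted p = 2.81e-07, same binomial model), but against sites preceded by C or T, where G followed 22.3%, the direction turned (odds ratio 0.878, adjusted p = 0.00162). The difference for C (odds ratio 1.13, adjusted p = 0.0300, binomial model) did not pass the test without chromosome II or III, among other settings, and also turned against sites preceded by C or T, at 0.952. For A the odds ratio was 1.05 (0.995 to 1.11, adjusted p = 0.0939, binomial model), and against sites preceded by C or T it was 1.31 (adjusted p = 6.02e-18). T alone kept its direction and its call in each setting tried, none of which was against sites preceded by C alone. By preceding base, T followed 17.4% of sites preceded by C, 24.8% of those preceded by T and 23.8% of those preceded by A. The 17.9% of sites preceded by G was thus close to the share for C. How often each triplet occurs in the genome of these regions is unknown and was not corrected for.

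The score of sites preceded by G was lower whatever base came after. With the following base held fixed, they differed from their run's remaining sites by -0.37 before G (SE 0.042), -0.28 before C (SE 0.058), -0.26 before T (SE 0.041) and -0.25 before A (SE 0.024), all on the log2 scale. The adjusted p-values were 3.68e-18 before G, 2.90e-06 before C, 1.70e-10 before T and 1.15e-24 before A (linear model with an effect of the run and errors clustered on regions). The intervals of the 4 differences overlapped in part, and differences between them were not tested. Within the group, the mean log2 score stood below the mean of the run by -0.14 for GAG, -0.18 for GAA, -0.33 for GAT and -0.43 for GAC. Of these 4 triplets, GAC also had the lowest top score, at 17, against 57 for GAG, 67 for GAA and 71 for GAT. It also had the fewest sites, at 493, and a top score depends on the number of sites. Sites preceded by C and followed by C (CAC) stood at -0.42, beside -0.43 for GAC. CAT stood at -0.28, beside -0.33 for GAT, while CAA and CAG stood higher, at 0.015 and 0.076. The mean score of GAT sites, at 1.94, was above the 1.78 of CAT sites. These pairs were not tested, and no score test was made against sites preceded by C alone.

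**Figure D3:**
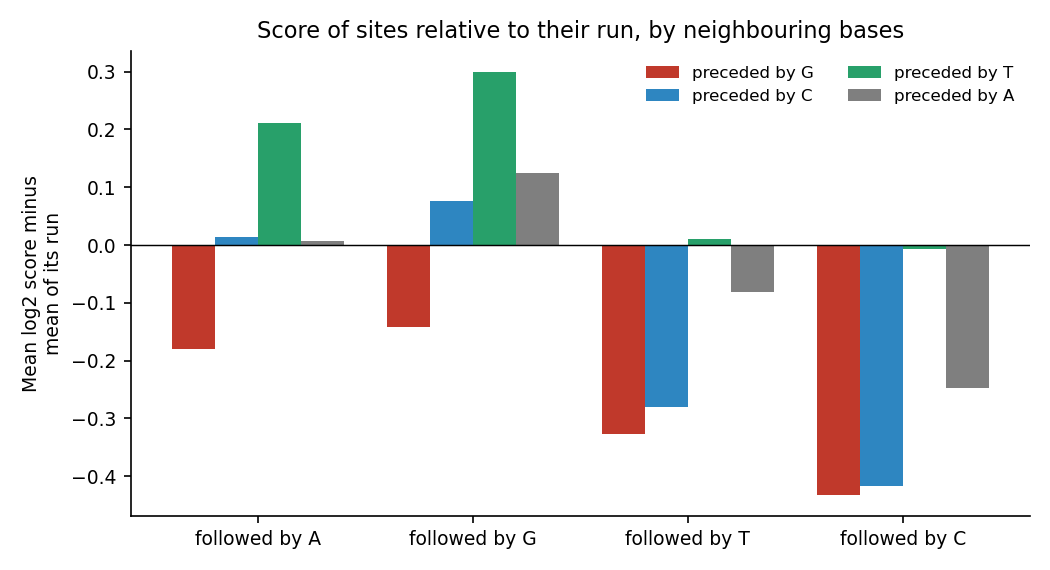
Mean log2 score of sites minus the mean of their run, by the base after the site (groups along the axis) and the base before it (colours), in runs with a highest score of at least 2; bars are means over sites without an error bar. The bars for G before the site lie below 0 in all 4 groups, from -0.14 before G to -0.43 before C.

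The question of how the share of sites preceded by G changes from run to run was taken by the number of sites first. The share was 10.3% in runs of 4 to 5 sites, 9.11% in runs of 6 to 7, 8.63% in runs of 8 to 10, 9.69% in runs of 11 to 15, 9.17% in runs of 16 to 25, 9.57% in runs of 26 to 50 and 10.7% in the 161 runs of 51 or more. With the highest score in the same model, the odds changed by a factor of 0.985 per doubling of the number of sites (95% interval 0.931 to 1.04, adjusted p = 0.601, binomial model with errors clustered on regions). This value turned to 1.03 in runs with a highest score of at least 5 and passed the test below 1 without chromosome III (0.942, adjusted p = 0.0150, binomial model), so no direction is given for it.

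The share was higher in runs with a higher top score. It was 8.95% in runs whose scores were all 1, 9.27% where the highest score was 2, 9.12% for 3 to 4, 9.96% for 5 to 9 and 10.4% for 10 to 19. In the 41 runs with a highest score of 20 to 49 it was 12.1%, and in the 10 runs that reached 50 it was 14.6% (exact 95% interval 12.6 to 16.9%). The odds changed by a factor of 1.08 per doubling of the highest score (95% interval 1.03 to 1.12, adjusted p = 0.000490, binomial model with errors clustered on regions). Without the runs of 20 or more, a setting chosen after seeing the data, it was 1.05 and did not pass the test (adjusted p = 0.0853, binomial model). Runs with a highest score of 10 or more had a higher share than runs with scores of 1 on each chromosome, from 10.2% against 9.50% on III to 17.4% against 9.25% on X, where 29 of 167 sites in high-scoring runs were preceded by G. On III the exact 95% intervals overlapped (9.29 to 11.1% against 8.66 to 10.4%), and the values per chromosome were not tested.

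**Figure D4:**
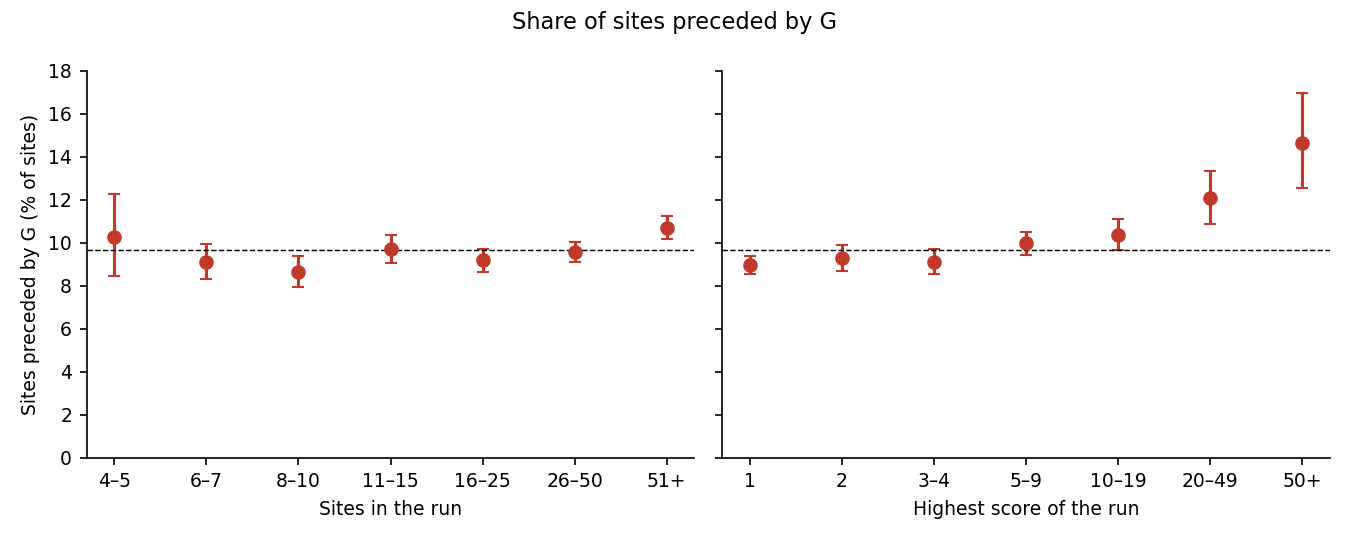
Share of sites preceded by G by the number of sites in the run (left) and by the highest score of the run (right), with exact 95% intervals; the dashed line is the share over all sites, 9.65%. Along the number of sites the shares stay between 8.63% and 10.7%, and along the highest score they reach 14.6% in the last class.

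In these high-scoring runs, the sites preceded by G lay at the low end of the scores. In runs with a highest score of 20 or more, sites preceded by G were 19.9% of the 840 sites with a score of 1, 14.4% of those with 2 to 4, 10.2% of those with 5 to 9 and 7.33% of the 1078 sites with 10 or more. In the whole list, sites preceded by G were 10.3% of sites with a score of 1 and 6.14% of those with 10 or more. The share in these runs was thus above that of the whole list in both classes. Over all scores it was 12.1% in runs that reached 20 to 49 and 14.6% in those that reached 50. Sequencing depth of these runs is unknown, and its part in this was not tested.

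Sites preceded by G lay near other sites, as did the listed sites preceded by every other base. Their nearest same-strand site was at a median of 3 bp, against 1 bp for A, 3 bp for C and 4 bp for T. Within 10 bp there was another site for 89.7% of sites preceded by G, against 90.2% for C, 86.4% for T and 95% for A. No other site lay within 50 bp for 1 site preceded by G, 1 preceded by A, 2 preceded by T and 0 preceded by C. A site preceded by G can have no site directly before it, because that base is not an adenosine, and sites preceded by C or T share this limit. In the 5′ direction, inside runs, the distance to the previous site was shorter for sites preceded by G than for those preceded by C or T, by -0.15 on the log2 scale (95% interval -0.19 to -0.12, adjusted p = 2.30e-18, n = 1369 regions, linear model with an effect of the run and errors clustered on regions). The median of this distance was 7 bp for G, 7 bp for C and 8 bp for T, and G was not tested against C alone. A site exactly 2 bases before was present for 7.62% of sites preceded by G, against 5.13% for C and 8.39% for T.

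In the 3′ direction, where the rule sets no limit, the next site was at a median of 4 bp for G, 3 bp for C, 5 bp for T and 5 bp for A. The within-run difference from all other sites was -0.064 on the log2 scale (95% interval -0.11 to -0.018, adjusted p = 0.00934, n = 1412 regions, same model). It did not pass the test without chromosome II or IV, and it was -0.16 on II, -0.12 on IV, -0.11 on X, 0.019 on III and 0.0020 on V. Where an A followed, that A was itself listed after 57.9% of the 3131 sites preceded by G, against 79.3% of 4864 preceded by C, 69.0% of 6867 preceded by T and 47.6% of 16915 preceded by A.

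Runs differed in how many sites preceded by G they held, and whether by more than counting error was not tested. In the 459 runs of at least 30 sites, their share had a median of 9.52%, with quartiles of 6.45% and 12.7% and a highest value of 27.5%, and 9 of these runs held none. The most, 72 of 520 sites, were in a minus-strand run of chromosome III between 13778793 and 13781346, where sites preceded by G and the other sites both had a median score of 2. The plus-strand run over the same place, from 13779915 to 13781341, held 37 of 278, with a median score of 1 against 2 for the other sites. On chromosome IV, the run from 1733669 to 1734998 held 38 of 273, with medians of 2 against 4. The run from 15216635 to 15217618 on chromosome II held 24 of 169, also with 2 against 4. At the other end, 3 large runs had no site preceded by G: 592414 to 592913 on chromosome III and 10350689 to 10350960 on IV with 47 sites each, and 3589450 to 3589745 on IV with 38 sites. How many adenosines there have a G before them is unknown.

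The run from 3749517 to 3750143 on the minus strand of chromosome V had the highest share of the runs named here, with 27 of 144 sites preceded by G, or 18.8%. It contains the first stretch printed above. The 27 sites had scores of 1 to 38 with a median of 2 and quartiles of 1 and 7, against 1 to 60 with a median of 6 and quartiles of 2 and 16 for the other 117 sites. A score of 1 was held by 9 of the 27, against 17 of the 117, and a score of 20 or more by 2 of the 27, against 21 of the 117. The groups overlapped over most of their range.

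**Figure D5:**
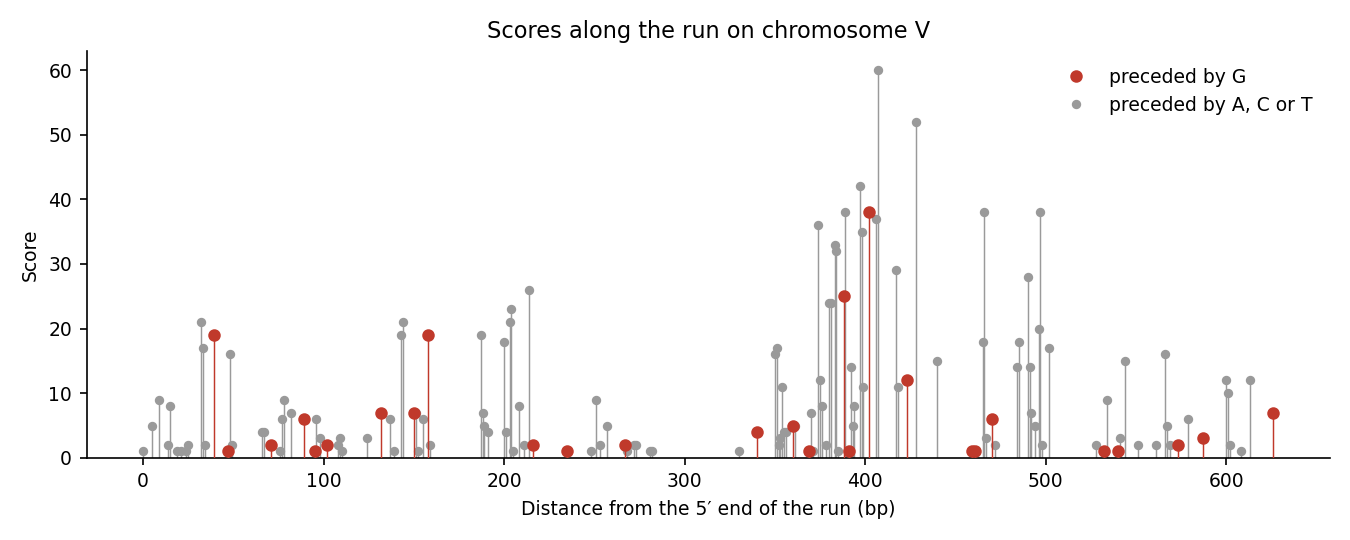
Score of each site along the minus-strand run on chromosome V from 3749517 to 3750143, by distance from its 5′ end in bp; red marks the 27 sites preceded by G and grey the 117 other sites. The median is 2 for the sites preceded by G and 6 for the others, and 2 red points reach 20 or more.

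The 10 sites preceded by G with the highest scores were exceptions to the low scores of the group. They lay in 8 runs, and 5 were followed by T, 4 by A and 1 by G. The first, at position 2646552 of chromosome V on the plus strand, was a GAT site with a score of 71, in a run of 97 sites with a median of 14 and a highest score of 143. The same run held the second at 2646610 (GAA, 67) and the sixth at 2646498 (GAA, 38). The third, at 12224035 of chromosome III on the minus strand, scored 60 in a run that reached 114. The fourth, at 13142597 of chromosome III on the minus strand, was a GAG site whose score of 57 was the highest of its 73-site run.

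The remaining 5 scored between 34 and 44. On chromosome III they were 5459629 (GAT, 44) and 3080644 (GAT, 34, the highest of its run of 34 sites). On chromosome V there was 3749741 (GAT, 38), and on chromosome IV 4474717 (GAA, 37) and 2194730 (GAT, 35). Thus 2 of the 10 were the top of their run. Of the 10, 9 lay in regions where 8 sites in a row matched those of another region in triplets and spacing, as did 1611 of all 5848 sites preceded by G. With such regions left out, sites preceded by G made up 9.58% of sites, against 9.65% over all. High-scoring sites preceded by other bases were not counted in this way, so the 9 cannot be set against them. Such regions numbered 162, and copies of a sequence could not be told apart from reads placed at several copies.

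Around 5 of these sites at least 8 bases could be read back. For the site at 3749741 of chromosome V this is the end of the first sequence above, and the others are printed for their immediate surroundings, with the G and the adenosine of the high-scoring site in capitals.
chrIII:12224027-12224036, minus strand: GAaaaaaaat
chrIII:5459620-5459632, plus strand: cacaaaatGAtac
chrV:2646497-2646507, plus strand: GAaatcaccat
chrIII:3080637-3080645, plus strand: aactatGAt

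In the first of these, the site preceded by G scored 60, and the 7 adenosines that follow had a median of 11 and a highest score of 81. In the second it scored 44, above all 6 other sites of the stretch, which had a median of 8 and a highest score of 37. In the third it scored 38, against a highest score of 69 among 4 others, and in the fourth 34, against 12 and 1 for the other 2 sites.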

How the data were processed

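The deposited C. elegans table has no header. The authors deposited 1 row per A-to-G position with a whole-number score, whose meaning is not given in the sources used here; caller, filters and genome build are likewise not given. The score was not treated as a read count, so depth is unknown. The human table was not used, since it has no triplets. The table names no sample. The members, lists and tests were chosen with earlier results of these data known.

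Sites on II, III, IV, V and X were joined into runs (100 bp, same strand) and regions (1000 bp). Shares have exact (Clopper-Pearson) 95% intervals. The 16 tests were binomial models or linear models of log2 values with an effect of the run, two-sided, with errors clustered on regions and Benjamini-Hochberg adjustment over the 16 (threshold 0.05; Python 3.11.15, statsmodels 0.14.6, pandas 2.3.3, scipy 1.17.1). Score models used runs with a highest score of at least 2. The tests were also run on simulated data with effects of known size. The simulated scores were continuous, unlike the real ones, which were mostly 1, so these runs do not cover such scores. Recovery was recorded for some of the tests only, without the 5′ distance and the score by following base. The sites, runs and stretches named are the highest-scoring 10 sites, the 5 runs with most and the 3 largest with no sites preceded by G, and the 5 longest stretches; of the known but unlisted adenosines preceded by G, the 5 whose runs had the highest top scores are shown. No gene could be assigned. The bracketed score comparison, the top site of runs and the per-chromosome values were added after the table was seen.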

Additional observations from a re-analysis of the deposited data

How the results depend on the processing

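Over 17 results, 220 alternatives were run. Joining runs at 50 or 200 bp could not change the share, the odds ratios of the following base or the odds of being listed. The share has no test and counted as kept when it lay inside its main interval. With these included, 191 of 220 alternatives kept direction and call. The lower odds of being listed (odds ratio 0.211 to 0.433 over the settings in which it is one), the lower score within runs (-0.36 to -0.19), the 4 score differences by following base, the shorter 5′ distance and the lower share of T after the site did so in each. The odds ratio of A after the site was 1.08 without chromosome III (adjusted p = 0.0351, binomial model), 1.09 without regions on both strands, 1.08 without regions that share a pattern and 1.31 against C or T, all past the test, and reversed to 0.972 in runs with a highest score of 5 or more. That of C lost its call without chromosome II (1.13) or III (1.06), regions on both strands (1.09) or sharing regions (1.12) and reversed to 0.952 against C or T; that of G reversed to 0.878. The 3′ distance lost its call without chromosome II (-0.038) or IV (-0.046), in runs with a highest score of 5 or more (-0.024) and without regions on both strands (-0.054).

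The factor of the share per doubling of the number of sites passed the test without chromosome III (0.942), the 10 largest regions (0.949) or regions on both strands (0.954), and reversed, without passing, with runs joined at 50 bp (1.02), in runs with a highest score of 5 or more (1.03) and among sites preceded by C, G or T (1.02). That of the highest score lost its call without runs of 20 or more (1.05). The change of the listing gap with the number of sites reversed without chromosome III (1.01) and without regions on both strands (1.13), where that with the highest score passed (0.669). The share of sites preceded by G moved to 10.5% in runs with a highest score of 5 or more, 9.38% without regions on both strands, 8.40% at scores of 2 or more and 18.9% of sites preceded by C, G or T. Causes were not tested. No paired analysis was possible because the table names no sample; leaving out replicates was not possible for the same reason. Unknown depth limits statements on adenosines that are not listed.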

Other observations

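The triplets also allow the mirror of the background used above: adenosines directly after a listed adenosine, with another listed site 2 bases further on, whose following base is therefore known. All of these are preceded by A. They were listed in 109 of 129 cases when followed by G, which is 84.5% (exact 95% interval 77.1 to 90.3%). When followed by A they were listed in 68.9% of 3031 cases (67.2 to 70.5%), when followed by T in 57.2% of 687 (53.4 to 60.9%) and when followed by C in 47.3% of 275 (41.2 to 53.4%). These shares were computed after the table was seen and were not tested.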
